A study of Mus musculus with 48 samples.

Results

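V(D)J recombination at Igh, the mouse heavy chain locus, was compared between primary bone marrow (BM) pro-B cells and a pro-B cell line transformed by the v-Abl oncogene. The comparison used the full junction lists of 3 wild-type BM libraries (WT BM) and 3 libraries of the untreated parental v-Abl line, 6 of the 48 samples of the series, chosen by their titles. Both groups were read with baits in the 4 JH segments. The assay, LAM-HTGTS, copies DNA outward from a primer in the bait and reads through the joint into the partner DNA, so each deposited junction gives the position of a joined D or VH segment. The denominator of the VH share is the number of junctions in the D and VH regions of chromosome 12 on the mm9 build, and other shares name theirs.

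The BM cells were labelled WT primary BM pro-B cells of strain C57BL/6. They were purified on B220 beads and grown for 4 to 5 days in medium holding the cytokines IL-7 (10 ng/mL) and SCF (2 ng/mL). Their genotype label also reads RAG1 deficient, with no step that restores RAG, although VH and D joints were read in all 3 libraries. A second treatment label repeats STI-571, described next, for every sample. The parental line was labelled OsTIR1, Emu-Bcl2 and RAG1 deficient. OsTIR1 is the plant protein used by auxin degrons, and Emu-Bcl2 is a survival transgene driven by the heavy chain enhancer. RAG1 and RAG2 were supplied to the line by retrovirus and the cells were held for 4 days in 3 uM STI-571, which blocks the Abl kinase and arrests such lines in the cell cycle. A line is 1 clone, and the labels do not say whether the replicates of either group came from separate mice or cultures, so their spread may be technical.

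Assembly of a heavy chain gene begins when the RAG endonuclease, held at a recombination centre over the JH segments, joins a D to a JH. In a later step a VH is joined to that DJ. RAG cuts at recombination signal sequences, each made of a heptamer, a spacer and a nonamer. D segments carry signals with short spacers and VH and JH segments signals with long ones. The VH genes spread over megabases beyond D, and contraction of the locus, which depends on cohesin loop extrusion and on the transcription factor Pax5, is known to bring distant VH genes to the centre in pro-B cells. At each joint the ends are opened and trimmed, and the enzyme TdT (Dntt), present in adult pro-B cells, can add bases without a template.

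The segments that the results turn on differ in sequence and in distance from JH. The D segments are printed from the reference genome on the coding strand, the reverse of the genome's plus strand, with the segment in capitals and its flanking heptamers in lower case. Ighd4-1, also known as DQ52, is the D nearest JH. Ighd1-1, also known as DFL16.1, is the far D in use, since the 3 D segments annotated beyond it held at most 0.0173% of D junctions in any library. Ighd2-4 stands for the middle D segments.
Ighd4-1 (chr12:114668732-114668756): cacagtgCTAACTGGGACcacggtg
Ighd2-4 (chr12:114708898-114708928): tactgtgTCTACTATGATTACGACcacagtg
Ighd1-1 (chr12:114720374-114720410): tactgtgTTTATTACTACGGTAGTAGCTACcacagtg

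The recombination signals of 4 VH genes, printed on the coding strand with heptamer and nonamer in capitals, show the D-near genes Ighv5-2 and Ighv2-2 beside Ighv1-26 and Ighv1-81. Ighv5-2, also known as VH81X, lies 96.3 kb from Ighd1-1 and is known for its frequent use in early pro-B cells. Ighv2-2 lies 106.1 kb, Ighv1-26 lies 1306.2 kb and Ighv1-81 lies 2438.1 kb from Ighd1-1.
Ighv5-2 (chr12:114816676-114816714): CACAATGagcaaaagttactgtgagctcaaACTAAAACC
Ighv2-2 (chr12:114826439-114826477): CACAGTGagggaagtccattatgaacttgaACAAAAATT
Ighv1-26 (chr12:116026545-116026582): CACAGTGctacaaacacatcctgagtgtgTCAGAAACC
Ighv1-81 (chr12:117158452-117158489): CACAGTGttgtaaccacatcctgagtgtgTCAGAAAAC
The heptamers of Ighv2-2, Ighv1-26 and Ighv1-81 equal the consensus, and that of Ighv5-2 differs from it at 1 base. The nonamers differ from theirs at 1 base in Ighv5-2, 2 in Ighv2-2, 2 in Ighv1-26 and 3 in Ighv1-81.

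The libraries held 120067 to 378840 D plus VH junctions in WT BM and 215022 to 629017 in the parental line. VH junctions alone numbered 61394 to 182742 in WT BM and 2772 to 5941 in the line, so levels of single VH genes are less precise in the line. The 6 libraries came from 4 sequencing runs, none of which held both groups, so run and group cannot be told apart. Parental replicate 1 had another bait mix, with 92.3% JH4 and 7.73% JH2 baits and none from JH1 or JH3, while in the other 5 libraries JH2 gave 43.6% to 53.7% of the junctions. Values within JH2 and within JH4 baits are therefore given where they bear on a result. WT BM replicates 2 and 3, which shared a run, had 243 exact VH joints in common, down to the inserted bases, 2.70% and 2.57% of their distinct joints. Replicate 1 shared 1 such joint with each of them. Parental replicates 2 and 3 shared 227, 6.38% and 6.63% of theirs. Values with 1 library left out are given where they move a result.

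By junction lines, a VH made up 48.1 times as large a share of D plus VH junctions in WT BM as in the line. The VH share of D plus VH junctions was 48.2%, 50.4% and 51.1% in the 3 WT BM libraries, and 1.29%, 0.944% and 0.881% in the parental libraries. The groups did not overlap. The means were 49.9% ± 1.51 (SD, n = 3) and 1.04% ± 0.219 (SD, n = 3), with p = 0.1 in a two-sided exact permutation test, the smallest p that 3 against 3 libraries allow. Every single-value comparison was tested by the same exact permutation test. Benjamini-Hochberg adjustment over all 25 of these exact tests gave 0.139 for each result with p = 0.1, so none of them can pass 0.05 in this design. In 18 of the 25, or 72%, the libraries of the groups did not overlap.

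The difference in VH share held within each bait segment. With JH4 baits it was 55.0% in WT BM and 1.13% in the line as means of 3 libraries, and with JH2 baits 50.2% and 1.29%. Among the WT BM libraries the share was highest with JH4 baits in all 3, at 54.8% to 55.1%, and lowest with JH1 baits, at 45.8% to 48.0%. Many lines repeat a junction. When each distinct joint, with its inserted bases, was counted once, the VH share became 60.7% in WT BM and 9.16% in the line, a ratio of 6.63. Distinct junctions counted without their inserted bases gave 65.4% and 15.2%, a ratio of 4.31. With all junctions as the denominator, those of the JH region included, the VH share was 45.5%, 16.4% and 6.04% in the WT BM libraries and 1.02% ± 0.224 (SD, n = 3) in the line. On that scale the ratio of means, 22.3, was 11.1 without WT BM replicate 1. Of other untreated v-Abl libraries, 3 of a Wapl-degron line had VH shares of 0.831% to 1.01% and 3 of a single-Igh Wapl-degron line 1.11% to 1.55%, with bait mixes that differed between libraries.

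**Figure D1:**
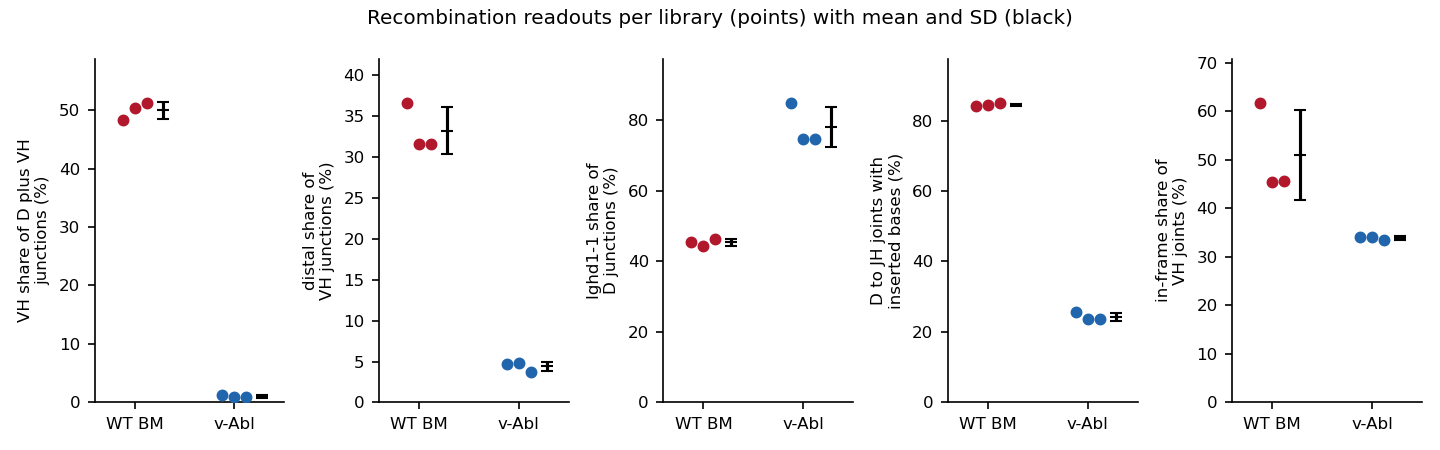
Readouts plotted per library, with points for the 3 WT BM (red) and 3 parental v-Abl (blue) libraries and the mean and SD in black beside them. All vertical axes are percentages and start at 0, and in each panel the groups do not overlap.

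VH junctions of the line lay almost wholly beside D, while those of WT BM reached across the region. When the VH region was cut into 4 equal stretches, the one nearest D held 33.4%, 38.9% and 38.6% of VH junctions in WT BM, and 92.6%, 91.7% and 92.5% in the line. The farthest stretch held 20.1%, 17.8% and 17.4% in WT BM and 1.37%, 1.62% and 1.38% in the line. Beyond the midpoint the distal share was 33.2% ± 2.89 (SD, n = 3) against 4.42% ± 0.577 (SD, n = 3), with p = 0.1 in the exact permutation test, a ratio of 7.51 that was 4.50 for distinct junctions. The midpoint of all VH junctions, the median, lay 980 to 1041 kb from Ighd1-1 in the WT BM libraries and 106 kb in each parental library, at the position of Ighv2-2.

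By junction lines, on the scale of D plus VH junctions, each 250 kb of the VH region was used more in WT BM, but unequally. The first 250 kb held 11.1% ± 1.79 (SD, n = 3) of D plus VH junctions in WT BM and 0.908% ± 0.188 (SD, n = 3) in the line, a ratio of 12.2. In the next 250 kb the ratio of the means was 115, and in the third it was 554. The bins beyond lay between 184 and 545, apart from the last, a shorter one, where parental replicate 1 had no junction. For the first bin the direction depended on the counting: distinct junctions gave 10.3% in WT BM and 11.3% in the line, a ratio of 0.912, and with inserted bases 10.9% and 7.93%, a ratio of 1.38. The second to ninth bins were higher in WT BM by both, at ratios of 5.49 to 21.1 and of 13.5 to 64.0. Within WT BM, by lines, the share was lowest in the sixth to ninth bins, at 2.25% to 3.05% of D plus VH junctions, and was 4.61% ± 0.0841 (SD, n = 3) in the farthest bin.

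**Figure D2:**
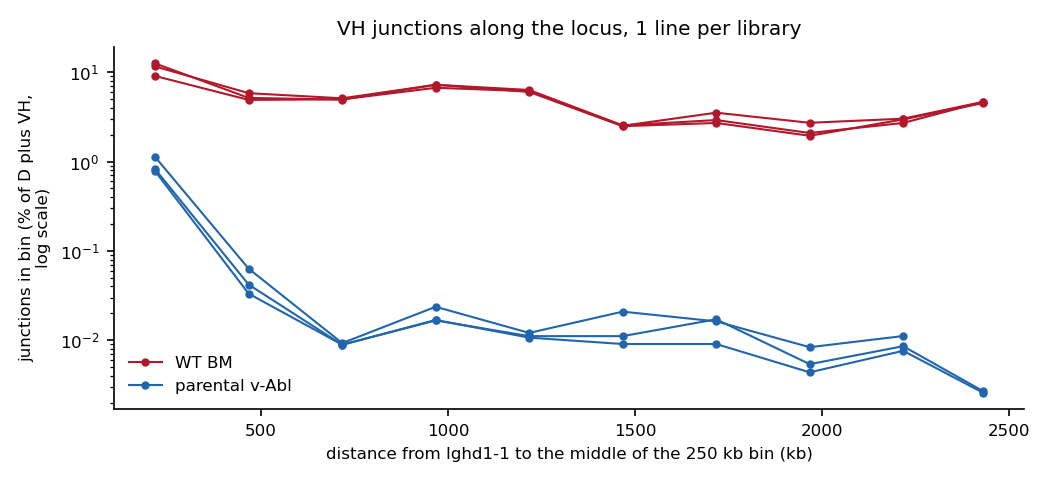
Share of D plus VH junctions (percent, log axis) in successive 250 kb bins of the VH region, against the distance of the bin from Ighd1-1 in kb, with 1 line per library. WT BM lines (red) stay above 1% throughout, and parental lines (blue) fall from about 1% to near 0.01% within the first 3 bins. Parental replicate 1 has no junction in the last bin, where no point is drawn.

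Single VH segments were tested as counts, with D plus VH junctions as the library size. Of 182 segments with at least 10 junctions in the 6 libraries, 102 lay at annotated VH genes and 80 at unannotated sites. All 102 annotated genes and 53 of the 80 other sites were higher in WT BM at an adjusted p under 0.05 in limma, together 85.2% of those tested. By the same limma test none, or 0%, were lower, and the 157 segments with an unadjusted p under 0.05 were all higher. The line had no junction at 72 of the 182 segments, 24 of them annotated genes. Those segments entered the test through WT BM alone and had to differ in this direction. Further segments had junctions in the line but fewer than 10, and also passed the filter only through their WT BM junctions. Scaled to VH junctions instead, to ask how these were shared out among segments, 45 segments were higher in WT BM (24.7%) and 7 were lower (3.85%), 28.6% in either direction. The count of higher segments on that scale rests on all 3 parental libraries: without parental replicate 1, 2 or 3 it was 2, 2 and 0, and the count of lower segments was 6, 6 and 5. With sequencing run as a random block 6 were higher and 6 lower.

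The D-near genes took the largest part of VH junctions in the line. Ighv5-2 held 41.5%, 43.0% and 43.1% of VH junctions in the parental libraries and 5.85%, 7.09% and 9.40% in WT BM. It was the most used VH gene of both groups. As a share of VH junctions it was 5.71-fold lower in WT BM (log2 difference -2.55, SE 0.20, adjusted p = 1.23e-05 in limma). Yet per 10000 D plus VH junctions Ighv5-2 rose from 38.0 to 53.5 in the parental libraries to 282, 358 and 481 in WT BM, 8.48 times as many (adjusted p = 6.78e-13 in limma).

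Ighv2-2 differed in the same direction, with 18.8%, 20.7% and 19.8% of VH junctions in the line and 3.60%, 4.30% and 4.01% in WT BM (log2 difference -2.36, SE 0.16, adjusted p = 5.5e-06 in limma). The 6 annotated genes that were lower in WT BM as shares of VH junctions were Ighv5-2, Ighv2-2, Ighv5-4, Ighv2-3, Ighv5-6 and Ighv5-12, which lie within 219.9 kb of Ighd1-1. Ighv5-12, the farthest of them, held 3.81% ± 1.04 (SD, n = 3) of VH junctions in the line and 1.20% ± 0.162 (SD, n = 3) in WT BM. Of the tested genes in the same stretch, Ighv2-4 (log2 difference 0.57, SE 1.06), Ighv5-9 (0.67, SE 0.65) and Ighv2-5 (-0.65, SE 0.65) were not called, and their libraries overlapped. The seventh lower segment was an unannotated site with no junction in WT BM and 12, 0 and 1 junctions in the parental libraries, so it passed the filter through the line, mostly through replicate 1, and its groups overlapped. At 377 kb, Ighv5-17 held 1.06% ± 0.0872 of VH junctions in WT BM and 1.05% ± 0.283 in the line (SD, n = 3 each), a log2 difference of -0.03 with SE 0.52. When each distinct junction was counted once, the difference per D plus VH junction turned: 5 of the 6 genes called lower were then lower in WT BM in limma, among them Ighv5-2 at a log2 difference of -0.74 (adjusted p = 0.000317). That counting also raised the VH share of the line by a far larger factor than that of WT BM, as given above. The denominator thus changed unequally between the groups. How far this bears on the turn, or repeated lines on the rise by junction lines, was not tested.

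Ighv1-26, an Ighv1 (J558) gene in the middle of the region, held 2.40%, 2.32% and 2.14% of VH junctions in WT BM and none of the 14147 VH junctions of the 3 parental libraries. A count of 0 there allows a share of up to 0.0212%, taken as 3 junction lines over the group. By lines the share of Ighv1-26 was then at least 108-fold higher in WT BM. By the same bound Ighv1-18 was at least 93.7-fold, Ighv1-82 at least 61.3-fold and Ighv1-5 at least 44.1-fold higher. In limma the adjusted p was 0.00392, 0.00657, 0.0293 and 0.0235 for Ighv1-26, Ighv1-18, Ighv1-82 and Ighv1-5, and 0.014, 0.0184, 0.076 and 0.0758 with run as a random block. With no junction in the line, these genes passed the filter through WT BM alone and could differ only in this direction. They were also among the segments picked for the largest rise, so their p-values are no independent support. Ighv1-81, near the far end, held 2.11%, 2.32% and 3.58% in WT BM and 1 junction in the 3 parental libraries together, and was not called (log2 difference 7.13, SE 2.80, adjusted p = 0.0709 in limma). Ighv1-19 also had 1 junction in the line, and it held 1.61% ± 0.175 (SD, n = 3) of VH junctions in WT BM. Unlike Ighv1-81 it was called (log2 difference 6.76, SE 1.49, adjusted p = 0.0133 in limma). Ighv1-19 and Ighv1-81 also passed the filter only through their WT BM junctions and were among those picked for the largest rise. Their p-values are no independent support either. Intervals and bounds take each junction line as 1 count. Lines repeat joints, with 449, 3557 and 3422 distinct VH joints in the parental libraries, and the reads carry no molecular identifiers. The intervals are therefore too narrow and the bounds too tight.

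Other named genes beyond the nearest stretch had more junctions in the line. Ighv8-12, 2165.8 kb from Ighd1-1, held 1.07%, 1.115% and 0.710% of VH junctions in WT BM and 0.0361%, 0.353% and 0.386% in the line. Its shares did not overlap, and the log2 difference was 2.07 with SE 0.75 (adjusted p = 0.0583 in limma). Ighv3-6 held 1.98% ± 0.474 (SD, n = 3) in WT BM and 0.176% ± 0.106 (SD, n = 3) in the line (adjusted p = 0.0341 in limma, and 0.0879 with run as a random block). Among unannotated sites the leading one, at chr12:115850443-115850481, held 1.94% ± 0.483 (SD, n = 3) in WT BM and 0.765% ± 0.175 (SD, n = 3) in the line. As a share of VH junctions it was not called (log2 difference 1.02, SE 1.19, adjusted p = 0.51 in limma).

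By family, the Ighv1 genes held 38.1% ± 4.02 (SD, n = 3) of VH junctions in WT BM and 2.76% ± 0.402 (SD, n = 3) in the line. Of 54 Ighv1 genes tested, 27 were higher in WT BM as shares of VH junctions and none were lower. Over all 182 segments 45 were higher (24.7%), and over the 102 annotated genes 42 were. The median log2 difference was 4.25 for Ighv1, beside 1.44 over all 182 segments and 3.50 over annotated genes. The line had no junction at 22 of the 54, which therefore passed the filter through WT BM alone. So did those with fewer than 10 junctions in the line, such as Ighv1-19 and Ighv1-81, so the count of 27 was partly set by the filter. With segments without a junction in the line at the bound of 3 counts, the medians were 3.90 for Ighv1 and 1.34 over all 182 segments. For the unannotated sites among these the median was then -0.947. With sequencing run as a random block 6 of the 54 were called higher, and without parental replicate 1, 2 or 3 the number was 2, 2 and 0. The Ighv5 family held 15.8% ± 2.14 in WT BM and 60.3% ± 0.777 in the line (SD, n = 3 each). Of 9 Ighv5 genes tested none were higher and 4 were lower, with a median of -0.03. Over all 182 segments 7 were lower (3.85%), and over the 102 annotated genes 6 were. The Q52 family, Ighv2, held 10.0% ± 1.27 and 29.3% ± 0.317 (SD, n = 3 each), with none of 9 genes higher, 2 lower and a median of 0.29 (0.061 with 1 gene at its bound). The lower calls were 4 and 2 with run as a random block too, and 3 and 2 without parental replicate 3. All 4 tested Ighv14 (SM7) genes and all 4 tested Ighv3 genes were higher in WT BM, beside 42 of the 102 annotated genes. Their medians were 3.82 (3.42 with 1 gene at its bound) and 3.88. But none of these 8 was called with run as a random block or without any 1 parental library. Some of them, such as Ighv3-1 and Ighv14-3, had fewer than 10 junctions in the line and passed the filter only through WT BM. Ighv5 and Ighv2 are the families that lie nearest D, and family and distance were not separated here.

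Use of VH genes was spread more evenly in WT BM. The most used segments that together held 50% of VH junctions numbered 27, 26 and 24 in the WT BM libraries and 2 in each parental library. The 10 leading segments held 26.8% to 31.8% of VH junctions in WT BM and 87.1% to 88.5% in the line. VH junctions outside annotated genes were 14.4% ± 1.80 (SD, n = 3) of the WT BM total and 2.84% ± 0.130 (SD, n = 3) of that of the line. The annotation of this build lacks many VH genes and pseudogenes, so such a site is not shown to lack a gene.

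Beyond the last annotated D and before the VH region lay a site with 1.86, 2.37 and 2.53 junctions per 1000 D plus VH junctions in WT BM and 0.414, 0.369 and 0.324 in the line. It made up nearly all junctions of that interval. The groups did not overlap, with p = 0.1 in the exact permutation test for the interval as a whole, at 2.26 ± 0.343 and 0.373 ± 0.0407 per 1000 (SD, n = 3 each). The sequence at the site holds a complete signal with a spacer of 23 bases, its heptamer and nonamer in capitals.
Interval site (chr12:114811089-114811148, minus strand): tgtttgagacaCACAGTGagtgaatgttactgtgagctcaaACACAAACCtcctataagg
Over its 39 bases this signal equals those of Ighv5-9, Ighv5-16 and Ighv5-17 at 37. No gene is annotated there on this build, and the site is left unnamed. Counted as distinct joints the direction reversed, with 1.94 per 1000 in WT BM and 3.10 in the line.

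D use also differed. Ighd1-1 took 45.6%, 44.2% and 46.3% of D junctions in WT BM and 84.7%, 74.8% and 74.7% in the line, 45.4% ± 1.06 against 78.1% ± 5.79 (SD, n = 3 each). The groups did not overlap, with p = 0.1 in the exact permutation test. Within JH4 baits the means were 35.2% and 81.8%, and within JH2 baits 42.3% and 75.3%. Counted as distinct junctions they were 22.3% and 31.9%, and 32.4% and 53.6% with inserted bases. Of the 21 annotated D segments, all 14 others whose libraries did not overlap between the groups (66.7%) were higher in WT BM, and Ighd1-1 was the 1 that was lower (4.76%). Shares of D junctions sum to a whole, so a lower Ighd1-1 raises the rest.

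The middle D segments of the Ighd2 family, also known as DSP2, held 38.4%, 40.1% and 37.1% of D junctions in WT BM and 11.3%, 10.2% and 10.2% in the line. Ighd2-4 led them in WT BM with 12.1%, 12.9% and 11.9%, against 1.83%, 1.65% and 1.64% in the line. Ighd2-3, the Ighd2 segment nearest Ighd1-1, differed least, with 7.77% ± 0.319 and 5.77% ± 0.514 (SD, n = 3 each). Ighd2-7 differed most among them, with 3.32% ± 0.175 and 0.202% ± 0.00232 (SD, n = 3 each), 16.5 times as much in WT BM. Ighd2-8 held 8.47% ± 0.226 and 2.09% ± 0.0943, and Ighd3-2 held 3.63% ± 0.491 and 0.424% ± 0.126 (SD, n = 3 each).

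Ighd4-1 did not separate the groups by junction lines over all baits. It held 8.56%, 7.07% and 7.58% of D junctions in WT BM and 3.02%, 13.8% and 13.9% in the line, with p = 0.4 in the exact permutation test. Parental replicate 1, with its JH4 baits, was the low one. Without it the WT BM mean lay 6.12 percentage points below that of the line, while within JH4 baits it was 1.67 points above, with no overlap (4.82% to 5.67% against 2.71% to 4.03%). Distinct junctions gave 7.18% in WT BM and 10.9% in the line, again with no overlap (p = 0.1, exact permutation test). With JH2 baits Ighd4-1 took 11.3%, 9.38% and 9.99% in WT BM and 6.71%, 18.1% and 18.1% in the line. D junctions on the minus strand, the orientation of an inversional joint, were 0.126% to 0.223% in WT BM and 0.0631% to 0.0926% in the line. Counted as distinct junctions the direction turned, with means of 0.438% and 1.82%, and of 0.203% and 0.555% with inserted bases.

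**Figure D3:**
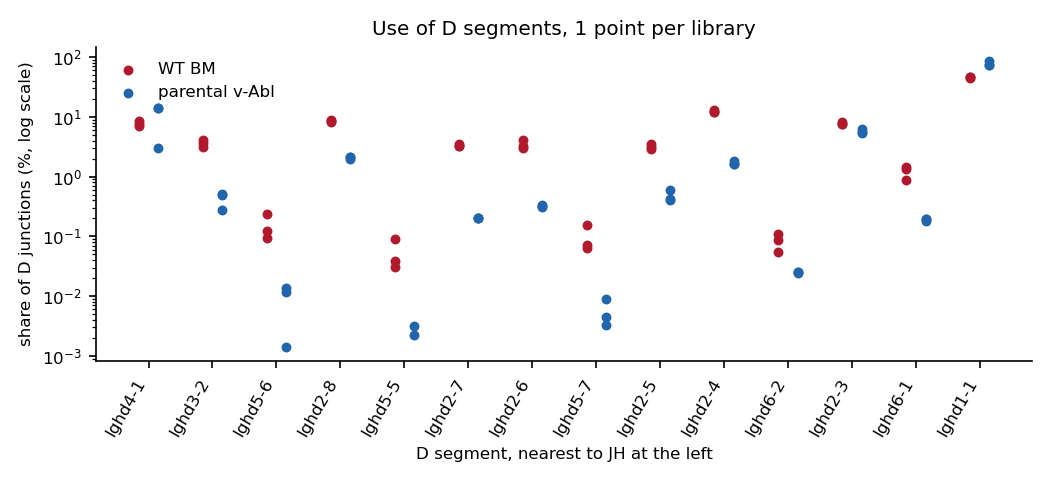
Share of D junctions (percent, log axis) for each D segment with a mean above 0.05% in either group, ordered from JH at the left, with 1 point per library. Ighd1-1 is lower in WT BM (red, 44.2% to 46.3%) than in parental v-Abl (blue, 74.7% to 84.7%), the Ighd2 segments are higher in WT BM, and Ighd4-1 overlaps. Ighd5-5 had no junction in parental replicate 1, where no point is drawn.

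The D that had been built into VH joints was read from the bases between VH and JH, by exact matches of at least 8 bases to a D. A D was assigned in 68.6% ± 2.70 of VH joints in WT BM and 76.1% ± 3.62 in the line (SD, n = 3 each). Among assigned joints Ighd1-1 made up 46.7%, 49.3% and 50.2% in WT BM and 63.5%, 69.4% and 69.0% in the line. The Ighd2 family made up 45.3% ± 0.945 and 30.2% ± 3.41 (SD, n = 3 each). With at least 10 bases required the Ighd1-1 shares were 54.8% ± 1.94 and 73.4% ± 3.56 (SD, n = 3 each). Long D segments such as Ighd1-1 are favoured by any such match, and the short Ighd4-1, at 2.95% and 1.70%, is missed more often.

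The joints themselves differed in their added bases. Of D to JH joints, 84.2%, 84.5% and 84.8% held inserted bases in WT BM and 25.7%, 23.6% and 23.8% in the line. Joints in which D and JH shared bases (microhomology) made up 8.40%, 7.72% and 7.43% in WT BM and 47.2%, 54.2% and 54.1% in the line. Neither measure overlapped between the groups, each with p = 0.1 in the exact permutation test. Joints with an insert held 4.06 ± 0.102 inserted bases on average in WT BM and 2.31 ± 0.0973 in the line (SD, n = 3 each), of which 64.4% ± 0.388 and 58.0% ± 0.639 were G or C. Within JH2 baits the shares with inserts were 85.6% and 26.7%, and within JH4 baits 89.1% and 26.2%.

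The same joint recurred in the line. The leading joints of Ighd1-1 to JH2 are printed on the coding strand from the first base of Ighd1-1, with the bases that either end could have given in capitals for joints 1 to 3, and the inserted bases in capitals for joint 4.
joint 1: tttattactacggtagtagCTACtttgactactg
joint 2: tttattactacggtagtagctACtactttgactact
joint 3: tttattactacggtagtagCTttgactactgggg
joint 4: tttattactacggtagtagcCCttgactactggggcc
Joint 1 made up 10.4%, 11.99% and 11.9% of Ighd1-1 to JH2 joints in the line and 1.46%, 0.916% and 1.775% in WT BM. Joint 2 made up 10.2%, 11.9% and 11.96% in the line and 1.71%, 1.32% and 1.26% in WT BM. Joint 3 made up 8.62%, 8.24% and 8.41% in the line and is not among the 4 leading joints of WT BM. Joint 4, the leading WT BM joint with an insert, made up 0.359%, 0.93% and 0.699% there. When distinct joints were counted once, inserts were in 91.2% of distinct D to JH joints in WT BM and in 83.3% in the line, and microhomology in 3.97% and 7.47%, since recurring joints without inserts then count once each.

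The bases between VH and JH, which hold the D and any additions, had a median length of 17, 18 and 18 in WT BM and 14, 13 and 13 in the line. No library held a junction with over 30 bases in this gap, so longer joints are not seen. Gaps of 28 to 30 bases made up 4.65% to 4.92% of VH joints in WT BM and 0.11% to 0.303% in the line, so this limit bears more on WT BM. Counted by line, Ighd1-1 lost 5.40 ± 0.0920 bases at D to JH joints without microhomology in WT BM and 2.88 ± 0.341 in the line (SD, n = 3 each). That difference reversed when distinct joints were counted once, at 6.29 and 6.62 bases.

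**Figure D4:**
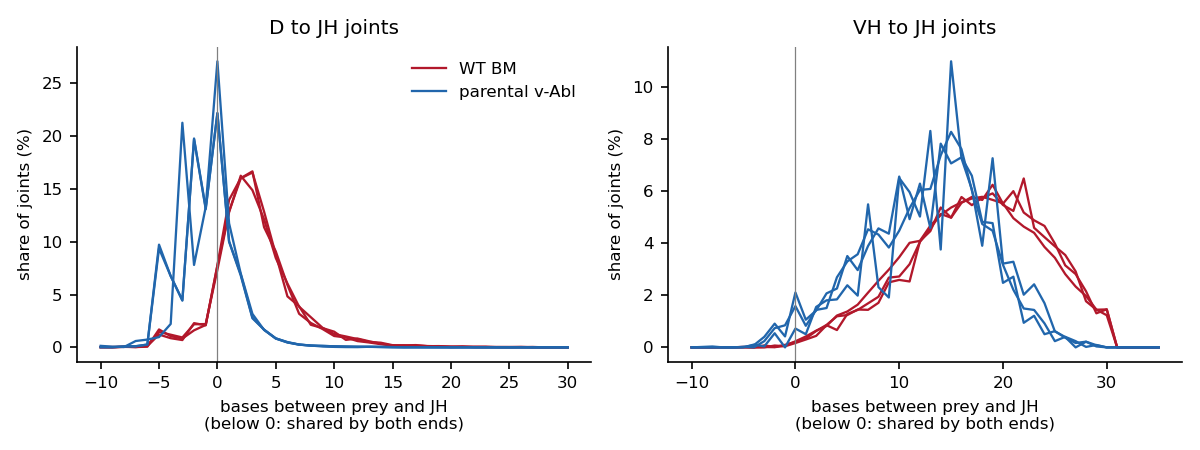
Share of joints (percent) by the number of bases between prey and JH, for D to JH joints (left) and VH to JH joints (right), with 1 line per library. Values below 0 are bases shared by both ends. WT BM (red) peaks at 2 to 3 inserted bases in D to JH joints and parental v-Abl (blue) at 0, and no VH joint has over 30 bases.

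Over all VH joints read, the in-frame share separated the groups too. The frame of a VH joint was read from the conserved cysteine codon of the VH gene to the tryptophan codon of JH, for annotated genes with a recognisable signal, which covered 78.4% to 81.9% of VH junctions in WT BM and 92.6% to 94.9% in the line. In the line 34.1%, 34.2% and 33.5% of these joints were in frame, close to the 33.3% that joining without regard to frame gives. In WT BM 61.6%, 45.5% and 45.7% were in frame. The groups did not overlap, with p = 0.1 in the exact permutation test. Replicate 1 stood above the others and came from another run. Its Wilson interval of 61.4% to 61.9% (95%), taken over junction lines and so too narrow, does not meet theirs. Distinct joints gave 63.3%, 46.1% and 45.6% in WT BM and 31.2%, 34.2% and 32.4% in the line. In frame and free of stop codons were 55.7%, 36.8% and 37.4% in WT BM and 26.8%, 28.1% and 27.1% in the line. Without WT BM replicate 1 the WT BM mean of this share was 37.1% in place of 43.3%, and its difference from the line 9.77 in place of 15.97 percentage points.

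The in-frame share varied with the VH gene in WT BM. Ighv5-2 joints were in frame in 31.1%, 26.4% and 23.6% in WT BM and in 35.8%, 35.1% and 33.9% in the line. For Ighv2-2 the values were 39.5%, 28.8% and 25.2% in WT BM and 28.5%, 33.8% and 33.7% in the line. Ighv1-81 lay at the other end with 83.0%, 86.2% and 86.0%, and among distinct joints 78.6%, 81.6% and 84.03%. Ighv1-26 gave 73.2%, 61.4% and 55.9%. Taken by family, Ighv1 joints were in frame in 71.4%, 53.9% and 58.1% in WT BM, Ighv5 joints in 45.0%, 33.3% and 30.04%, and Ighv2 joints in 42.5%, 33.6% and 29.8%. In the line Ighv5 joints were in frame in 33.1%, 34.6% and 34.1%, and Ighv2 joints in 37.1%, 34.2% and 32.9%. Within Ighv5 and within Ighv2 the groups overlapped. Single Ighv5 genes differed in direction, with Ighv5-2 lower in WT BM and Ighv5-12 higher, while Ighv5-4 and Ighv5-6 overlapped. Ighv5-12 joints were in frame in 54.15%, 47.2% and 44.7% in WT BM and in 17.3%, 24.3% and 29.9% in the line. The line's Ighv1 joints, only 59, 173 and 148 junction lines, were in frame in 23.7%, 28.3% and 28.4%. For Ighv1 the groups thus did not overlap, and WT BM was higher. The shares over all VH joints thus compare unlike mixes of VH families. Of the 80 VH genes with at least 100 junction lines in each WT BM library, 51 were above 33.3% in all 3 libraries (63.8%) and 3 were below it in all 3. Those 3 were Ighv5-2, Ighv3-3 and Ighv1-23, named because so few fell there. Lines repeat joints, with 4.39, 9.30 and 6.48 lines per distinct VH joint in the WT BM libraries. Values of genes with few lines may therefore rest on few distinct joints. Over the 80 genes the mean of the 3 libraries had a median of 56.0% and ran from 18.8% to 85.0%.

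**Figure D5:**
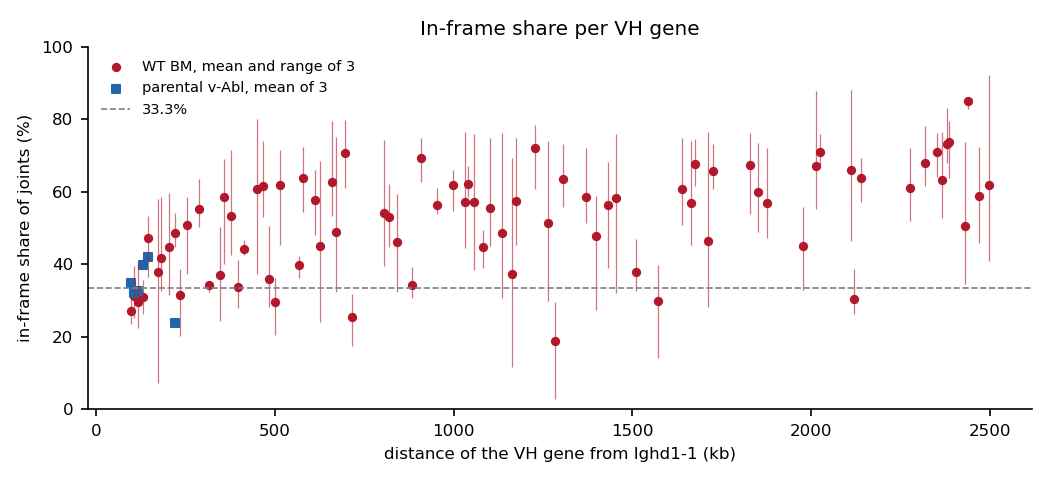
In-frame share of VH joints (percent) per VH gene against its distance from Ighd1-1 in kb, for genes with at least 100 junction lines in each WT BM library. Red points are the mean and red bars the range of the 3 WT BM libraries. Blue squares are the mean of the 3 parental libraries for the genes with at least 100 junction lines in each of them, and the dashed line marks 33.3%. Ighv1-81 is the highest red point, with 83.0% to 86.2%.

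In-frame joints of WT BM coded for CDR3 loops of 11.5, 11.8 and 11.9 residues on average, and those of the line for 12.01, 10.4 and 10.5, with p = 0.4 in the exact permutation test. The longest was that of parental replicate 1, with its JH4 baits. Within JH4 baits the means were 12.8 and 12.1 residues and within JH2 baits 10.7 and 9.77. VH junctions on the minus strand were 0.448% to 0.597% in WT BM and 0.144%, 1.77% and 1.79% in the line, with p = 0.4 in the exact permutation test.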

How the data were processed

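The authors' deposited lists hold 1 junction per line, with positions, strands and read coordinates of prey and bait, per the file headers. These values are not normalized, and every count and share was computed here. Reads were aligned to mm9 with Bowtie2, per the submitters' processing notes, and further settings are not given in the sources used here. VH segments were clusters of junctions pooled over the 6 libraries (gaps up to 20 bp), named by mouse annotation on the same build (GENCODE) within 20 bp, with symbols updated for 76 of 112 VH and 20 of 21 D genes through RefSeq synonyms. D segments took 25 bp on each side. Exact permutation tests, two-sided, served for single values (Python 3.11.15 with scipy 1.17.1). Segments with at least 10 junctions were tested in R 4.3.3 by limma 3.58.1, through voom with an added 0.5 and an empirical Bayes fit, with Benjamini-Hochberg adjustment and a threshold of 0.05. The limma script was tested on simulated data in which a minority of segments changed, in both directions. In the data here most segments differed in 1 direction, a setting that the simulation does not cover. Sequencing runs were told apart by read names. Plots used matplotlib 3.10.9.

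Segments named are the 8 most used in each group, the 6 of largest rise in WT BM per D plus VH junction (limma call, groups apart in every library), and Ighv5-2, Ighv2-2, Ighv1-26, Ighv1-81 and Ighv8-12. The largest falls were to be named too, but no segment was called lower on that scale. D segments named are Ighd4-1, Ighd1-1 and the most used others. Members and lists were chosen with earlier results of these data known. Frame, CDR3, inserts' length and base content, the Ighd2 family, minus-strand VH, unannotated VH sites, lost bases and the built-in D were added after the files were seen. Over VH segments, all pairs of replicates differed in a chi-square test that took each junction line as 1 count, and all were kept. WT BM replicate 4, of which only an off-target list was at hand, was not used here.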

Additional observations from a re-analysis of the deposited data

Results flagged for a closer look

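Junctions of the JH region itself entered no comparison other than those with all junctions as denominator or library size. In WT BM they made up 5.11% of all junctions in replicate 1, 66.1% in replicate 2 and 88.0% in replicate 3, against 0.835% to 1.79% in the parental libraries. In WT BM 91.7%, 99.84% and 99.97% of them lay on the minus strand, against 43.0% to 48.3% in the line. Their median gap to the bait in WT BM was 15, 19 and 16 bases. The WT BM ones took 1136, 1252 and 1547 distinct forms of bait end, position and strand, over 20494, 336732 and 893942 lines. What they are was not tested.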

How the results depend on the processing

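The exact tests of 3 against 3 libraries cannot pass 0.05, so for single values the alternatives bear on direction and size alone. With 6 other untreated v-Abl libraries, 3 of a Wapl-degron and 3 of a single-Igh Wapl-degron line, in place of the 3 parental ones, 20 results had p = 0.0238 in the exact permutation test, the smallest possible. That test takes the 6 as exchangeable, but the lines differed (Ighd2 share 9.55% to 10.9% against 19.1% or more of D junctions), so its p-values are too small. The WT BM minus v-Abl differences were then, in percentage points, 48.8 for the VH share, 29.2 for the distal share, -55.2 and 17.1 for the D-near and farthest stretches, -4.04 for Ighd4-1, -26.6 for Ighd1-1, 23.7 for Ighd2, 0.0757 and -0.939 for minus-strand D and VH, 62.5 for inserts, -48.2 for microhomology, 5.84 for their G plus C, 18.1 in frame, 16.7 also stop-free and 12.1 outside annotated genes. They were 5 bases for the median VH gap, 1.76 for insert length, 2.43 and 0.561 for bases lost from Ighd1-1 and JH, and 1.91 per 1000 for the interval. The bait shares changed sign there, at -2.20 for JH1, -6.29 for JH2, -0.777 for JH3 and 9.27 for JH4.

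Distinct junctions, counted without and then with their inserted bases, reversed minus-strand D (-1.38 and -0.352 points), the interval (-5.23 and -1.16 per 1000), bases lost from Ighd1-1 (-2.37 and -0.337) and JH (-0.265 and -0.0935), and JH2 bait share (-0.0814 and -0.738). JH4 baits alone reversed Ighd4-1 (1.67). Leaving out 1 library at a time, which for the bait shares turned on parental replicate 1, gave -2.87 to 11.1 for JH1, -6.54 to 16.4 for JH2, -0.450 to 6.32 for JH3 and -33.2 to 9.86 for JH4. The VH share difference then ranged from 48.3 to 49.7 and the in-frame difference from 11.7 to 19.8 points. Wider for their size were the ranges for Ighd4-1 (-6.12 to -0.662 points), CDR3 length (0.450 to 1.27 residues), minus-strand VH (-1.24 to -0.416 points) and minus-strand D (0.0555 to 0.104 points).

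The 155 limma calls per D plus VH junction ranged from 134 to 168 with 1 library left out, and were 142 with run as a random block and 124 with all junctions as the library size. They became 52 with VH junctions as the library size, 101 of 102 with annotated genes alone, and 45 with TMM factors (34 higher, 11 lower), which assume that most segments do not change. The 52 calls per VH junction ranged from 5 to 62, became 86 with at least 100 junctions, 12 with sequencing run as a random block and 78 with distinct junctions. Per D plus VH junction, distinct junctions gave log2 differences of -0.74 for Ighv5-2, -0.50 for Ighv2-2, -0.36 for Ighv5-4, -0.43 for Ighv2-3, -0.41 for Ighv5-6 and -0.21 for Ighv5-12. TMM gave -3.89, -3.67, -2.99, -3.44, -3.11 and -3.01 for the same genes, -1.78 for Ighv2-6, -1.36 for Ighv5-17 and -0.15 for the unannotated site at 115850443. Per VH junction Ighv5-17 ranged from -0.19 to 0.21 with 1 library left out, turning to 0.18 and 0.02 without WT BM replicate 1 or 3 and 0.21 without parental replicate 1. Among the named segments 29 values lost their call, 12 gained one and 19 reversed, while 398 did none of these. Where no other reason is named, the cause was not tested.

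Replicate numbers did not pair the samples, with correlations of same-numbered deviations of 0.05, -0.00 and -0.03. With a replicate block the counts were 179 and 89, and Ighv5-17 per VH junction was 0.016. Fits within a run could not be made, since no run held both groups.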
